A study of Mus musculus with 8 samples.

Results

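Heme is made in a series of enzymatic steps that begin and end in the mitochondrion, and it is broken down by heme oxygenase. The 9 genes described here encode 8 enzymes of heme synthesis (Alas1, Alas2, Alad, Uros, Urod, Cpox, Ppox and Fech) and the inducible heme oxygenase (Hmox1). They were chosen by gene name from a table of 56748 genes, and all 9 were listed in it. Poly(A) RNA sequencing had been performed on 8 libraries of 32D cells, a mouse myeloblast-like bone marrow line that grows on interleukin-3. The study asked what happens to such cells when they lose their main glucose importers, with and without the JAK2 mutation of myeloproliferative neoplasms.

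There were 4 groups, each of 2 clones numbered 1 and 3. Every clone carried transduced murine Jak2, either wild type (Jak2WT) or with the activating V617F mutation (Jak2V617F). In the GLUT1/3 dKO clones Slc2a1 (GLUT1) and Slc2a3 (GLUT3) had both been disrupted by CRISPR-Cas9, and GLUT1/3 WT clones kept both genes. Clones had been isolated by dilution to single cells, so that each library stands for the descendants of 1 cell of an established line. The paper also reports a round of single-cell dilution before editing. It lists the same Slc2a1 deletion for all dKO clones of a background. Whether the clones of a group share a parent cell was not tested. Differences between backgrounds cannot be told apart from other differences between the 2 transduced lines. All groups were kept for 24 h in pyruvate-free RPMI medium that held serum, 2 ng/ml interleukin-3, glutamine at 1 mM and glucose at 5 mM. The spread between 2 clones is the only error that the p-values measure.

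The first enzyme, 5-aminolevulinate synthase, joins glycine to succinyl-CoA and sets the pace of the pathway. Its ubiquitous form, ALAS1, is held down by heme, while ALAS2 serves hemoglobin production in red cell precursors. Heme represses its own synthesis and induces its breakdown, since it releases the repressor BACH1 from the Hmox1 gene, where the oxidant-sensing factor NRF2 can then act.

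Reads on genes ranged from 16846011 to 48884329 per library. Slc2a1 lay at 9.17 to 9.47 FPKM in the Jak2WT dKO clones against 44.7 to 48.4 in their GLUT1/3 WT clones, and at 12.7 to 17.3 against 53.0 to 64.0 in Jak2V617F. Slc2a3 lay at 16.0 to 49.5 FPKM against 91.9 to 97.7 in Jak2WT (adjusted p = 0.061, not called) and at 23.8 to 48.2 against 166 to 198 in Jak2V617F. Of 12 erythroid markers, Slc4a1, Sptb and Ermap were among those below 1 FPKM in every library. Of 9 neutrophil markers, Elane, Ctsg, Camp and Csf3r were below 1 FPKM throughout. The early granule protease gene Prtn3 was at 3.11 to 10.2 FPKM in all 8 libraries, and S100a8, S100a9, Ltf and Ngp were each above 3 FPKM in every Jak2WT library.

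FPKM are fragments counted relative to gene length and to the size of the library, and they allow levels to be set side by side between genes. Differences were fitted with limma on log2(FPKM + 1) over the 11818 genes that reached 1 FPKM in at least 2 libraries, and a gene was called at a Benjamini-Hochberg adjusted p under 0.05 over all of them. On this scale a difference understates the fold change of low genes, so ratios of mean FPKM are given beside it. Of the 9 members 8 were tested. Alas2 did not reach the level required.

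Promoter sequences are shown for 2 members, Alad and Cpox, so that the stretch before each start can be read beside the expression values. Each line gives the 250 bases before the canonical start of the reference annotation in GRCm39, 5′ to 3′ on the strand of the gene, with motif matches in capitals. The windows are chr4:62438194-62438443 (minus strand) for Alad and chr16:58490164-58490413 (plus strand) for Cpox. The canonical starts used, 62438193 for Alad and 58490414 for Cpox, lie upstream of the starts of the counted genes, at 62438155 and 58490655. For Cpox the bases just before the start of the counted gene are therefore not shown.
Alad: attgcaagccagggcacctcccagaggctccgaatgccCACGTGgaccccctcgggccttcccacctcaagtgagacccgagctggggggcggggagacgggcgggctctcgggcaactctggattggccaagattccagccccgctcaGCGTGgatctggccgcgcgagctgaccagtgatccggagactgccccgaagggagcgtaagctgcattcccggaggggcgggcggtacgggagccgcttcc
Cpox: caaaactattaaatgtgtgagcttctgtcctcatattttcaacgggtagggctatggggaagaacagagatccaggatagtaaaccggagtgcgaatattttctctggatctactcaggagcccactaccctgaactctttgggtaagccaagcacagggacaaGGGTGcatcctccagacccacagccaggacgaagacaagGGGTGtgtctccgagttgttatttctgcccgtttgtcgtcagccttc

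The motifs were searched on both strands. They were the site of GATA factors, spelled AGATAA or with another end as AGATAG, or with another first base as TGATAA or likewise TGATAG, the box of Krüppel-like factors, spelled CACCC, the antioxidant response element, spelled TGACNNNGC, the hypoxia response element, spelled ACGTG or otherwise GCGTG, and the NRF1 site, spelled GCGCATGC. The Alad window held 3 hypoxia response matches, of which the ones at −212 and −211 are the same palindrome read on either strand and the other begins 101 bases before the start. The Cpox window held 2 CACCC matches. Neither window held a GATA, antioxidant response or NRF1 match. Among 21770 windows of the same kind, one for each protein-coding gene, 41.3% held a hypoxia response match, 52.9% a CACCC match, 26.2% a GATA match, 9.69% an antioxidant response match and 2.68% an NRF1 match. The matches in both windows are therefore of kinds that many promoters hold.

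The levels of the 9 members differed widely. Averaged over the 8 libraries, Hmox1 came first with 36.5 FPKM and Alad next with 33.5 FPKM, above 88% and 86.9% of the genes tested. Urod and Cpox followed with 16.8 and 14.4 FPKM. Alas1, Ppox, Uros and Fech lay at 5.61, 3.55, 2.95 and 2.26 FPKM, and Alas2 at 0.110 FPKM. The order changed between groups. Hmox1 was the highest in both GLUT1/3 WT groups, and its clones did not overlap those of the next member there. In the Jak2WT dKO clones Hmox1 and Alad overlapped. In the Jak2V617F dKO clones Alad was highest by far, with 76.8 FPKM on average against 18.5 for Urod, and Hmox1 came after them with 17.6. Neighbours in the order whose clones overlapped were Urod and Cpox in Jak2WT GLUT1/3 WT, Urod and Alad in Jak2V617F GLUT1/3 WT, and Fech and Uros in both Jak2V617F groups. Alas1 also overlapped Uros in Jak2V617F GLUT1/3 WT.

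**Figure D1:**
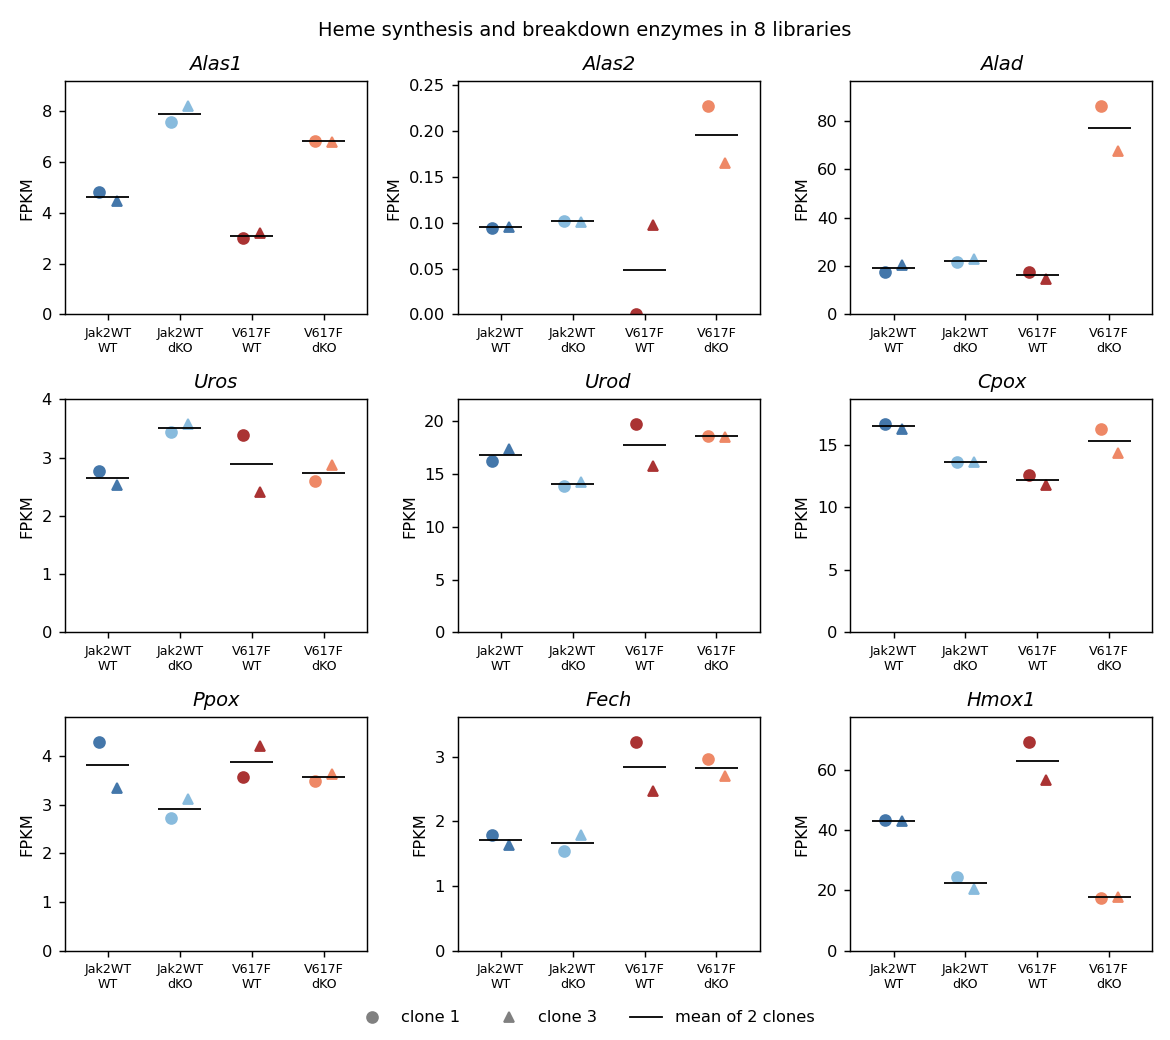
FPKM of each of the 9 members (y axes, linear from 0, one scale per gene) in the 4 groups (x axes), with a circle for clone 1, a triangle for clone 3 and a line for the mean of the 2 clones. Alad stands at 67.5 and 86.1 FPKM in the Jak2V617F GLUT1/3 dKO clones and at no more than 22.9 elsewhere, while Alas1 is higher and Hmox1 lower in the dKO clones of either background.

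Alas1 (ENSMUSG00000032786, chromosome 9 from 106110654 to 106125853, minus strand) encodes the ubiquitous first enzyme. It was measured at 4.80 and 4.47 FPKM in Jak2WT GLUT1/3 WT clones 1 and 3 and at 7.57 and 8.20 in the corresponding dKO clones. In the Jak2V617F background it was measured at 2.99 and 3.21 FPKM in GLUT1/3 WT and at 6.84 and 6.79 in dKO. Both dKO groups lay above both GLUT1/3 WT groups without overlap. Alas1 rose 1.70-fold with the double knockout in Jak2WT (0.66 ± 0.08 on the log2 scale, SE, adjusted p = 0.0066) and 2.2-fold in Jak2V617F (0.93 ± 0.08, adjusted p = 0.00058). The difference between these 2 responses was 0.27 (95% interval −0.0020 to 0.55, adjusted p = 0.17) and was not called. Among GLUT1/3 WT clones Alas1 was 1.49-fold lower in Jak2V617F than in Jak2WT (−0.46 ± 0.08, adjusted p = 0.0070). Among dKO clones the same difference was −0.18 (95% interval −0.38 to 0.01, adjusted p = 0.18).

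The Jak2WT call for Alas1 was lost without Jak2WT GLUT1/3 WT clone 1 (adjusted p = 0.053) or clone 3 (adjusted p = 0.059). The lower level in Jak2V617F was lost without Jak2WT GLUT1/3 WT clone 1 (adjusted p = 0.057). In Jak2V617F the dKO call held without any one library, with an adjusted p of at most 0.0054.

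Alas2 (ENSMUSG00000025270, chromosome X from 149330371 to 149353634, plus strand) encodes the erythroid form of the first enzyme, and it was close to absent. Its values were 0.0946 and 0.0959 FPKM in Jak2WT GLUT1/3 WT, from 9 and 4 reads, and 0.102 and 0.101 in Jak2WT dKO, from 7 and 12 reads. In Jak2V617F GLUT1/3 WT clone 1 had 0 reads, which allows up to 0.0583 FPKM at a floor of 3 reads, and clone 3 had 0.0977 FPKM from 7 reads. The Jak2V617F dKO clones had 0.227 and 0.165 FPKM, from 19 and 10 reads. These were the highest of the 8 libraries, yet Alas1 was still 30.1 and 41.1 times as high as Alas2 in the same clones. When genes were tested without the expression filter, Alas2 differed by 0.19 between dKO and GLUT1/3 WT clones in Jak2V617F (adjusted p = 0.077), which did not pass. Alas2 lies within the span of Apex2 on the other strand, which was measured at 0.881 to 1.46 FPKM, and reads of the 2 genes cannot be told apart if strand was not used in counting.

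Alad (ENSMUSG00000028393, chromosome 4 from 62427406 to 62438155, minus strand) encodes the second enzyme, which condenses 2 molecules of 5-aminolevulinate to porphobilinogen. It had the largest difference of the 8 members tested. It was measured at 17.6 and 20.4 FPKM in Jak2WT GLUT1/3 WT clones 1 and 3, at 21.5 and 22.9 in Jak2WT dKO, and at 17.6 and 14.8 in Jak2V617F GLUT1/3 WT. In Jak2V617F dKO clones 1 and 3 it reached 86.1 and 67.5 FPKM. The other 6 libraries lay between 14.8 and 22.9 FPKM, well below both Jak2V617F dKO clones. Alad rose 4.73-fold with the double knockout in Jak2V617F (2.17 ± 0.14, adjusted p = 0.00036). In Jak2WT the difference was 0.22 (95% interval −0.11 to 0.54, adjusted p = 0.34). The 2 responses differed by 1.95 on the log2 scale (95% interval 1.49 to 2.42, adjusted p = 0.0087). Among dKO clones Alad was 3.46-fold higher in Jak2V617F (1.74 ± 0.14, adjusted p = 0.00057), whereas among GLUT1/3 WT clones the difference was −0.22 (adjusted p = 0.28). The difference between responses missed the threshold without Jak2WT GLUT1/3 WT clone 3 (1.86, adjusted p = 0.052), and the rise in Jak2V617F passed it without any one library (adjusted p of at most 0.0029).

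The neighbours of Alad on chromosome 4 were looked up after its values had been seen, to show whether the whole stretch moved. Of the 8 tested genes listed, 4 on each side, 3 were called higher in Jak2V617F dKO clones, all by less than Alad, and 1 lower. Of all genes tested, 29.9% were called in this comparison. Pole3, the nearest, starts 5.15 kb away and rose by 0.62 ± 0.12 (adjusted p = 0.0089). Rnf183 rose by 0.80 ± 0.18 (adjusted p = 0.017) and Prpf4 by 0.52 ± 0.08 (adjusted p = 0.0031). Hdhd3 (0.35), Cdc26 (−0.10) and Rgs3 (−0.07) were not called. The remaining neighbours start much farther off, Akna at 883 kb and Atp6v1g1 at 1025 kb from the Alad start. Atp6v1g1 fell by 0.56 ± 0.08 in Jak2V617F (adjusted p = 0.0028), and Akna fell by 0.66 ± 0.13 in Jak2WT (adjusted p = 0.019), where it was the 1 neighbour called.

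**Figure D2:**
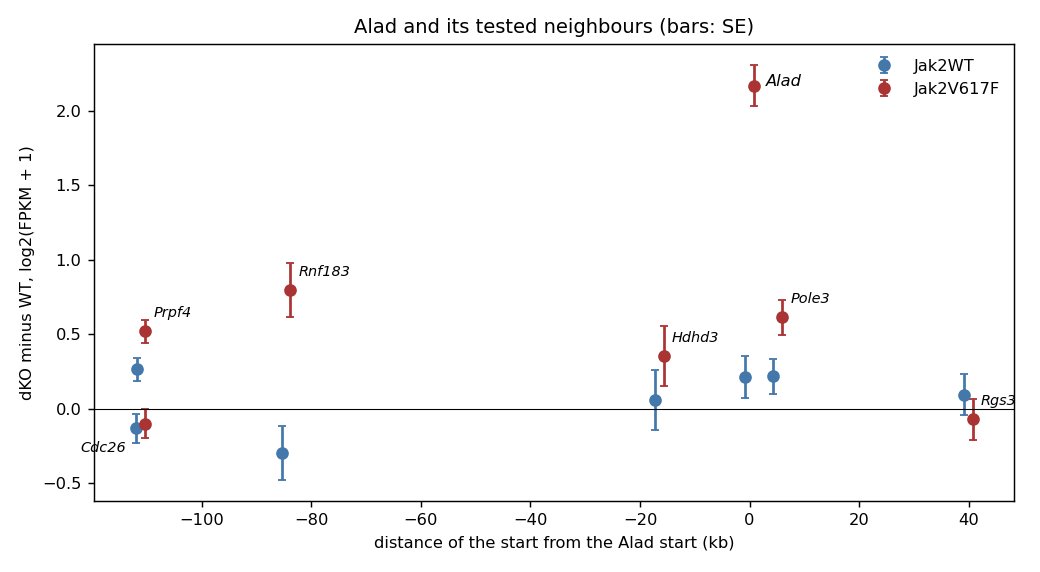
Difference between GLUT1/3 dKO and GLUT1/3 WT clones in log2(FPKM + 1), with SE bars, for Alad and its 6 nearest tested neighbours (the 2 farther ones are not drawn), against the distance of each start from the Alad start in kb (blue Jak2WT, red Jak2V617F, points of 1 gene set slightly apart). Alad stands at 2.17 in Jak2V617F and the highest neighbour, Rnf183, at 0.80.

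The middle steps of the pathway, which close the porphyrin ring and trim its side chains, showed small differences. Uros (ENSMUSG00000030979, chromosome 7) closes the ring, and it was measured at 2.77 and 2.53 FPKM in Jak2WT GLUT1/3 WT, at 3.44 and 3.57 in Jak2WT dKO, at 3.38 and 2.40 in Jak2V617F GLUT1/3 WT and at 2.61 and 2.87 in Jak2V617F dKO. No comparison called Uros. It overlaps Bccip on the other strand, a gene at 33.0 to 53.1 FPKM, which makes its level uncertain if counting ignored strand.

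Urod (ENSMUSG00000028684, chromosome 4), the decarboxylase that follows, was measured at 16.3 and 17.4 FPKM in Jak2WT GLUT1/3 WT, at 13.8 and 14.2 in Jak2WT dKO, at 19.7 and 15.7 in Jak2V617F GLUT1/3 WT and at 18.6 and 18.5 in Jak2V617F dKO. Among dKO clones it was 1.32-fold higher in Jak2V617F (0.38 ± 0.11), which just missed the threshold (adjusted p = 0.053). The dKO difference within Jak2V617F was 0.071 (95% interval −0.18 to 0.32).

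Cpox (ENSMUSG00000022742, chromosome 16 from 58490655 to 58537999, plus strand), the oxidase that makes protoporphyrinogen, responded differently in the 2 backgrounds. It was measured at 16.7 and 16.3 FPKM in Jak2WT GLUT1/3 WT and at 13.7 in both Jak2WT dKO clones. In Jak2V617F it was measured at 12.6 and 11.8 FPKM in GLUT1/3 WT and at 16.3 and 14.4 in dKO. Cpox was called higher in Jak2V617F dKO than GLUT1/3 WT clones (0.31 ± 0.08, 1.26-fold, adjusted p = 0.032), and its difference in Jak2WT was −0.25 ± 0.08 (adjusted p = 0.089). The 2 responses differed by 0.56 (95% interval 0.28 to 0.84, adjusted p = 0.032). Among GLUT1/3 WT clones Cpox was 1.35-fold lower in Jak2V617F (−0.41 ± 0.08, adjusted p = 0.012). These Cpox calls were close to the threshold. The rise in Jak2V617F was lost in 7 of the 8 fits that each left out 1 library (adjusted p up to 0.12), all but the one without Jak2V617F dKO clone 3, with genes of all levels tested (adjusted p = 0.052), and in the fit of the 2 groups alone (adjusted p = 0.13). The difference between responses was likewise lost in 7 of 8 such fits (adjusted p up to 0.12), again held without Jak2V617F dKO clone 3, and with genes of all levels tested (adjusted p = 0.065). The lower level in Jak2V617F was lost in 3, those without Jak2WT GLUT1/3 WT clone 1 or 3 or Jak2V617F GLUT1/3 WT clone 3 (adjusted p up to 0.074).

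Ppox (ENSMUSG00000062729, chromosome 1) makes protoporphyrin. It was measured at 4.29 and 3.36 FPKM in Jak2WT GLUT1/3 WT, at 2.73 and 3.12 in Jak2WT dKO, at 3.57 and 4.22 in Jak2V617F GLUT1/3 WT and at 3.49 and 3.64 in Jak2V617F dKO, and no comparison called it. Its span overlaps B4galt3 on the other strand, at 2.60 to 3.24 FPKM.

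Fech (ENSMUSG00000024588, chromosome 18) inserts iron into protoporphyrin, the final step. It was measured at 1.79 and 1.64 FPKM in Jak2WT GLUT1/3 WT and at 1.54 and 1.79 in Jak2WT dKO, against 3.23 and 2.46 in Jak2V617F GLUT1/3 WT and 2.97 and 2.70 in Jak2V617F dKO. All 4 Jak2V617F clones lay above all 4 Jak2WT clones. Fech was 1.66-fold higher in Jak2V617F among GLUT1/3 WT clones (0.50 ± 0.13, adjusted p = 0.027) and 1.71-fold higher among dKO clones (0.53 ± 0.13, adjusted p = 0.035). The dKO difference was −0.030 (95% interval −0.34 to 0.28) in Jak2WT and 0.0021 (95% interval −0.31 to 0.31) in Jak2V617F. The first call was lost without either Jak2WT GLUT1/3 WT clone or Jak2V617F GLUT1/3 WT clone 1 (adjusted p up to 0.13), with genes of all levels tested (adjusted p = 0.094), with libraries scaled to the same summed FPKM (adjusted p = 0.051) and in the fit of the 2 groups alone (adjusted p = 0.053). The second was lost without any one library other than the Jak2V617F GLUT1/3 WT clones (adjusted p up to 0.18), with genes of all levels tested (adjusted p = 0.11) and in the fit of the 2 groups alone (adjusted p = 0.069).

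Hmox1 (ENSMUSG00000005413, chromosome 8 from 75820249 to 75827217, plus strand) encodes heme oxygenase 1, which opens the heme ring to biliverdin, iron and carbon monoxide. It was measured at 43.2 and 42.9 FPKM in Jak2WT GLUT1/3 WT clones 1 and 3 and at 24.4 and 20.4 in Jak2WT dKO. In Jak2V617F it was measured at 69.2 and 56.6 FPKM in GLUT1/3 WT and at 17.5 and 17.8 in dKO. All 4 dKO clones lay below all 4 GLUT1/3 WT clones, and the 2 Jak2V617F groups held both the highest and the lowest values. Hmox1 fell 1.93-fold with the double knockout in Jak2WT (−0.92 ± 0.12, adjusted p = 0.0069) and 3.56-fold in Jak2V617F (−1.77 ± 0.12, adjusted p = 0.00038). The 2 responses differed by −0.85 (95% interval −1.25 to −0.45, adjusted p = 0.027). Among GLUT1/3 WT clones Hmox1 was 1.46-fold higher in Jak2V617F (0.53 ± 0.12, adjusted p = 0.015), and among dKO clones the difference was −0.32 (adjusted p = 0.11).

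The fall of Hmox1 in Jak2V617F held without any one library (adjusted p of at most 0.0028). The fall in Jak2WT missed the threshold without Jak2WT GLUT1/3 WT clone 1 (adjusted p = 0.058) or clone 3 (adjusted p = 0.056). The higher level in Jak2V617F was lost without either of those clones or Jak2V617F GLUT1/3 WT clone 1 (adjusted p up to 0.080), and the difference between responses without either of them, Jak2WT dKO clone 1, Jak2V617F GLUT1/3 WT clone 1 or Jak2V617F dKO clone 1 (adjusted p up to 0.097), and with genes of all levels tested (adjusted p = 0.079). In bulk RNA, fewer cells that express a gene and less RNA of it per cell cannot be told apart.

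**Figure D3:**
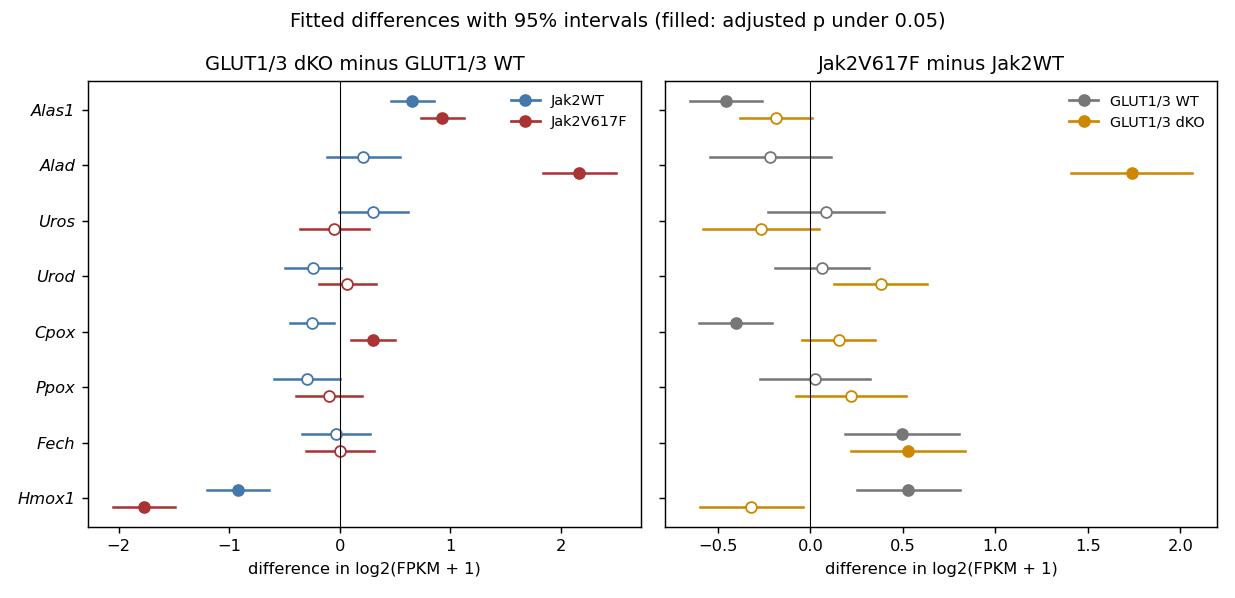
Fitted differences in log2(FPKM + 1) with 95% intervals for the 8 members tested, on the left GLUT1/3 dKO minus GLUT1/3 WT in each background and on the right Jak2V617F minus Jak2WT among GLUT1/3 WT and among dKO clones. Filled points passed an adjusted p of 0.05, and the largest are Alad at 2.17 and Hmox1 at −1.77 in the Jak2V617F dKO comparison.

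Counted over the pathway, in Jak2WT 2 of the 8 members tested were called, Alas1 higher and Hmox1 lower, where 13.7% of all genes tested were called. In Jak2V617F 4 of 8 were called, Alas1, Alad and Cpox higher and Hmox1 lower, where 29.9% of all genes were called. The median difference of the members was −0.14 in Jak2WT and 0.036 in Jak2V617F, against 0.0082 and −0.019 over all genes tested. Between backgrounds, 4 of 8 were called among GLUT1/3 WT clones (30.3% of all genes), Hmox1 and Fech higher and Alas1 and Cpox lower in Jak2V617F. Among dKO clones 2 of 8 were called (17.1% of all genes), Alad and Fech higher. The response to the double knockout differed between backgrounds for 3 of 8, Alad, Hmox1 and Cpox (10.6% of all genes). These counts were not tested against the shares of all genes. The Jak2V617F dKO comparison and the comparison between backgrounds among GLUT1/3 WT clones share the Jak2V617F GLUT1/3 WT clones, and the Jak2WT dKO comparison shares the Jak2WT GLUT1/3 WT clones with the latter.

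The genes around the pathway were read from lists. The supply of heme synthesis inside the mitochondrion, 20 carriers, iron-sulfur cluster proteins and proteases of which 18 were tested, had 1 gene higher and 3 lower in Jak2V617F dKO clones. Of all genes tested, 13.7% were called higher and 16.2% lower in this comparison. The list counts were not tested against these shares. Lonp1 and Clpx, a mitochondrial protease and an unfoldase that act on ALAS proteins, fell by 0.94 ± 0.08 and 0.43 ± 0.09 on the log2 scale (adjusted p = 0.00054 and 0.011), and the ferredoxin reductase Fdxr rose by 0.41 ± 0.08. In Jak2WT dKO clones 1 was higher and 1 lower (7.62% and 6.06% of all genes). Lonp1 fell there too, by 0.80 ± 0.08 (adjusted p = 0.0037).

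Slc25a38, the mitochondrial glycine carrier that feeds the first step, was measured at 4.26 and 4.22 FPKM in Jak2WT GLUT1/3 WT and at 7.30 and 7.14 in Jak2WT dKO. In Jak2V617F it was measured at 6.80 and 6.74 FPKM in GLUT1/3 WT and at 7.22 and 6.75 in dKO. It rose with the double knockout in Jak2WT (0.65 ± 0.07, 1.70-fold, adjusted p = 0.0053), differed by 0.039 ± 0.075 in Jak2V617F without a call, and the 2 responses differed by −0.61 ± 0.11 (adjusted p = 0.018). The glycine carrier thus reached in Jak2WT dKO clones the level that both Jak2V617F groups had.

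Among 9 genes that supply succinyl-CoA and glycine, 2 were called higher and 4 lower in Jak2V617F dKO clones (13.7% and 16.2% of all genes). Their median was −0.15, against −0.019 over all genes tested. Shmt1, the cytosolic enzyme that interconverts serine and glycine, rose by 0.99 ± 0.11 (adjusted p = 0.0011) and the 2-oxoglutarate dehydrogenase Ogdh by 0.36 ± 0.09 (adjusted p = 0.027). The glycine transporter Slc6a9 fell by 0.66 ± 0.14 (adjusted p = 0.012) and Sucla2, a subunit of succinyl-CoA ligase, by 0.62 ± 0.09 (adjusted p = 0.0026). In Jak2WT dKO clones Shmt1 rose by 0.65 ± 0.11 and Sucla2 fell by 0.36 ± 0.09, and the other 7 were not called. Of all genes tested, 13.7% were called in the Jak2WT comparison.

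Of 10 genes for heme breakdown partners and heme transport 8 were tested, with 2 higher and 3 lower in Jak2V617F dKO clones (13.7% and 16.2% of all genes). Blvrb, a biliverdin reductase gene, was measured at 8.68 and 7.05 FPKM in Jak2V617F GLUT1/3 WT and at 19.3 and 16.2 in dKO. It rose by 1.08 ± 0.12 there (2.26-fold, adjusted p = 0.0013) and by 0.55 ± 0.12 in Jak2WT (1.53-fold, adjusted p = 0.029), from 6.60 and 7.19 to 10.2 and 10.9 FPKM. Blvra, the other biliverdin reductase gene, rose by 0.48 ± 0.12 in Jak2V617F (adjusted p = 0.024). In Jak2WT the difference of Blvra was 0.10 ± 0.12 (adjusted p = 0.62). Blvrb was therefore higher in both dKO groups, in which Hmox1 was lower.

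Por, the reductase that hands electrons to heme oxygenase, fell by 1.13 ± 0.08 in Jak2V617F (adjusted p = 0.00038) and by 0.41 ± 0.08 in Jak2WT (adjusted p = 0.019). The heme transporter Slc48a1 fell by 0.62 ± 0.14 in Jak2V617F (adjusted p = 0.016). Hmox2, the constitutive heme oxygenase, was measured at 23.6 and 23.7 FPKM in Jak2WT GLUT1/3 WT, 20.6 and 20.5 in Jak2WT dKO, 19.2 and 14.97 in Jak2V617F GLUT1/3 WT and 17.5 and 18.3 in Jak2V617F dKO. Its dKO difference was −0.19 (95% interval −0.46 to 0.07) in Jak2WT and 0.071 (95% interval −0.19 to 0.34) in Jak2V617F. In Jak2V617F dKO clones, Hmox1 and Hmox2 thus stood at like levels of 17.5 to 18.3 FPKM.

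Of 10 genes for sensors of heme, iron and oxidants 8 were tested, with 1 higher and 2 lower in Jak2V617F dKO clones (13.7% and 16.2% of all genes). Bach1, which encodes the heme-sensitive repressor of Hmox1, differed by 0.083 (95% interval −0.29 to 0.45), and Nfe2l2, which encodes NRF2, by −0.12 (95% interval −0.35 to 0.12). Keap1, which encodes the protein that marks NRF2 for degradation, rose by 0.36 ± 0.08 (adjusted p = 0.016). Eif2ak1, the heme-regulated kinase that slows translation when heme is low, fell by 0.37 ± 0.10 (adjusted p = 0.029), and Fbxl5, an iron-sensing subunit of a ubiquitin ligase, by 0.80 ± 0.11 (adjusted p = 0.0022). Ireb2, an iron regulatory protein, differed by −0.21 ± 0.07 (adjusted p = 0.076). In Jak2WT dKO clones Nr1d2, a nuclear receptor that binds heme, was the gene called, higher by 0.76 ± 0.09 (adjusted p = 0.0054). Of all genes tested, 13.7% were called in that comparison.

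Hmox1 is itself a target of NRF2. Of 10 other NRF2 targets 9 were tested, with 3 higher and 1 lower in Jak2V617F dKO clones (13.7% and 16.2% of all genes). In Jak2WT dKO clones 2 were higher (7.62% of all genes). The quinone reductase Nqo1 rose by 1.30 ± 0.16 in Jak2V617F (adjusted p = 0.0018) and by 1.00 ± 0.16 in Jak2WT (adjusted p = 0.012), and the thioredoxin reductase Txnrd1 rose by 0.44 ± 0.09 in Jak2V617F (adjusted p = 0.010). The cystine importer Slc7a11 fell by 1.85 ± 0.21 in Jak2V617F (adjusted p = 0.0014). Gclc, a subunit of the first enzyme of glutathione synthesis, rose by 0.38 ± 0.08 in Jak2WT (adjusted p = 0.022) and by 0.36 ± 0.08 in Jak2V617F (adjusted p = 0.013). Slc7a11 was the called target that shared the direction of Hmox1 in Jak2V617F.

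Heme is used by hemoglobin, cytochromes and peroxidases. Of 13 genes for heme-carrying proteins and their assembly 11 were tested, and in Jak2V617F dKO clones 1 was called, the cytochrome c gene Cycs, higher by 0.52 ± 0.10 (adjusted p = 0.0090). In Jak2WT dKO clones 1 was called, the eosinophil peroxidase gene Epx, lower by 2.01 ± 0.21 (adjusted p = 0.0037). Of all genes tested, 29.9% were called in the Jak2V617F comparison and 13.7% in the Jak2WT one. Of 8 globin genes 7 were tested. Of these, Hbb-bh1, Hba-x and Hba-a2 passed the filter on low values only through the Jak2V617F dKO clones, where they were high, so their calls there are not counted. The other 4, Hbb-y, Hbb-bs, Hbb-bt and Hba-a1, were called higher in Jak2V617F dKO clones (13.7% of all genes). In Jak2WT dKO clones Hbb-bs and Hba-a1 were called higher (7.62% of all genes). The adult beta globin gene Hbb-bs was measured at 109.8 and 50.5 FPKM in Jak2V617F GLUT1/3 WT clones 1 and 3 and at 2209 and 1437 in dKO (4.56 ± 0.36, adjusted p = 0.00045). Hbb-y, an embryonic beta globin gene, rose by 4.57 ± 0.65 (adjusted p = 0.0029). Reads can be split between near-identical globin copies, so single globin values are uncertain.

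**Figure D4:**
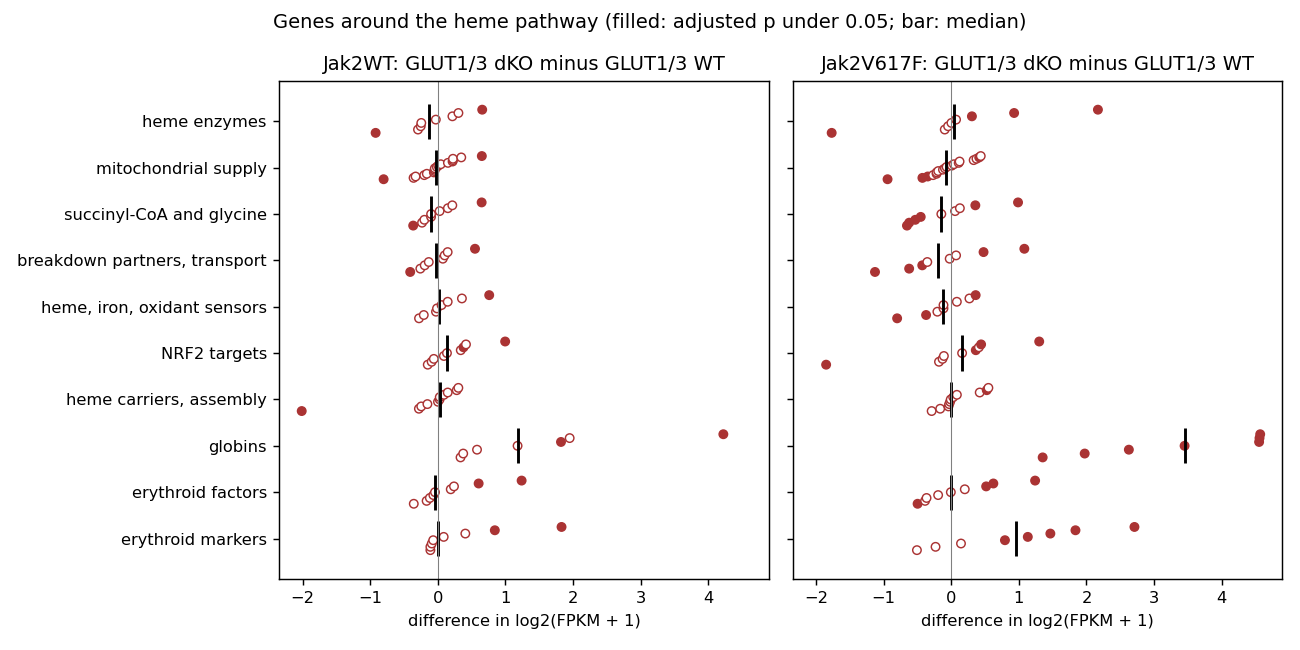
Difference between GLUT1/3 dKO and GLUT1/3 WT clones in log2(FPKM + 1) for the tested genes of 10 lists (1 point a gene, filled where the adjusted p was under 0.05, black bar at the list's median), in Jak2WT on the left and Jak2V617F on the right. The median of the heme enzymes lies at −0.14 and 0.036, and Hbb-bs lies at 4.22 and 4.56. The Jak2WT value of Hbb-bs starts from 1 read in each GLUT1/3 WT clone, so the pseudocount of 1 limits it and the 2 values are not alike. In the globin row 3 of the 7 genes passed the filter only through the Jak2V617F dKO clones, so its median is not read.

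Some erythroid genes were called in the same comparison as Alad. Of 12 erythroid markers 8 were tested and 5 were called higher in Jak2V617F dKO clones, where 13.7% of all genes tested were called higher, led by the blood group gene Kel (2.71 ± 0.17, adjusted p = 0.00036) and Hemgn (1.84 ± 0.14, adjusted p = 0.00039). The summed FPKM of the 12 was 396 to 490 in Jak2V617F dKO against 272 to 287 in Jak2V617F GLUT1/3 WT, 213 to 232 in Jak2WT dKO and 208 to 210 in Jak2WT GLUT1/3 WT. The transferrin receptor gene Tfrc, which serves iron uptake in many cells, made up a large part of it, with 203 and 134 FPKM in Jak2V617F dKO, 97.7 and 91.6 in Jak2V617F GLUT1/3 WT, 176 and 159 in Jak2WT dKO and 182 and 179 in Jak2WT GLUT1/3 WT. The other 3 were not called, with Rhag at 133 and 133 FPKM in Jak2V617F GLUT1/3 WT and lower, at 89.3 and 97.3, in dKO (−0.51 ± 0.19, adjusted p = 0.079), Epb42 at −0.23 ± 0.10 and Epor at 0.14 ± 0.13. In Jak2WT dKO clones 2 of the 8 were called higher (7.62% of all genes), Rhag (1.83 ± 0.19, adjusted p = 0.0037) and Kel (0.84 ± 0.17, adjusted p = 0.021). Of 9 erythroid transcription factors 3 were higher and 1 lower in Jak2V617F dKO clones (13.7% and 16.2% of all genes). In Jak2WT dKO clones 2, Lmo2 and Tal1, were higher (7.62% of all genes). Lmo2 rose by 1.24 ± 0.10 in Jak2V617F (adjusted p = 0.00046) and Klf1 by 0.62 ± 0.19 (adjusted p = 0.042). Gata1, the master regulator of erythroid genes, fell by 0.50 ± 0.13 (adjusted p = 0.025). Gata1 lay at 58.1 and 48.7 FPKM in Jak2V617F GLUT1/3 WT and at 41.1 and 34.0 in dKO. In the Jak2WT comparison, in which Alad was not called (0.22, adjusted p = 0.34), 2 globin genes, 2 erythroid markers and 2 erythroid transcription factors were called higher in dKO clones. Of all genes tested, 7.62% were called higher there. The part of these genes in the difference of Alad was not tested.

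Markers of other lineages also differed. The summed level of 9 macrophage markers was 23.0 to 26.8 FPKM in Jak2V617F dKO against 52.8 to 68.5 in Jak2V617F GLUT1/3 WT, with 7 of the 9 below 1 FPKM in every library. Most of this sum was Adgre1, which was lower by 1.54 ± 0.18 (adjusted p = 0.0014), while Cd68 differed by 0.29 ± 0.20 (adjusted p = 0.30). In Jak2WT the sum was 64.5 to 72.9 in dKO and 57.1 to 57.7 in GLUT1/3 WT, with Cd68 higher by 0.82 ± 0.20 in dKO (adjusted p = 0.037). The sum of 9 neutrophil markers was 76.1 to 125 FPKM in Jak2WT dKO, 90.2 to 218 in Jak2WT GLUT1/3 WT, 6.47 to 24.7 in Jak2V617F dKO and 10.7 to 12.5 in Jak2V617F GLUT1/3 WT. Of the 5 tested, the lowest adjusted p was 0.13 for Prtn3 in the Jak2WT dKO comparison and 0.11 for Ngp in the Jak2V617F one, each the 1 gene with an unadjusted p under 0.05 (0.034 and 0.044). Of 6 megakaryocyte markers, summed at 187 to 240 against 177 to 189 FPKM in Jak2V617F, Itga2b and Gp9 were not called in Jak2V617F and were called higher in Jak2WT dKO clones (0.43 ± 0.08 and 0.78 ± 0.13, adjusted p = 0.019 and 0.012). Ppbp (18.5 and 3.92 FPKM) and Pf4 (28.2 and 2.03 FPKM) reached 1 FPKM only in the Jak2V617F dKO clones and so passed the filter through them. Of 6 mast cell and basophil markers 5 were below 1 FPKM in every library, and the sum was at most 1.67 FPKM in Jak2V617F and 51.0 to 101 in Jak2WT. The part of these markers in the member differences was not tested.

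The genes most like a member were ranked by Pearson's r of log2(FPKM + 1) over the 8 libraries, as a description with no test, since these libraries fall into 4 groups. The 5 most like Alas1 were Zc3h12a, Dnajb11, Nup160, Sdf2l1 and Srsf2, with r from 0.984 to 0.987. The 5 most like Hmox1 were Plod1, Pdk1, Copg2, Cmtm6 and Arhgap15, with r from 0.989 to 0.994. For Alad, which was added after its values had been seen, the 4 most like genes with a symbol were Gm11527, Mx1, Dsn1 and Rap1gap, with r from 0.979 to 0.993. No such list was made for Alas2, which was not tested.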

How the data were processed

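RNA from 8 libraries of 32D clones (4 groups, 2 clones each, n = 2 per group) had been sequenced after poly(A) capture. According to the submitters' processing notes, HISAT2 2.2.1, featureCounts 2.0.6 and fastp 1.0.1 were used with the mm39 (GRCm39) build, and the authors deposited FPKM per gene. The annotation version, strand setting and library total behind the FPKM are not given in the sources used here. Each of the 8 value columns was assigned by the library label, and 0 columns were left unused. FPKM times gene length was divided by the smallest common step, estimated separately in each library. The result was a whole number of reads for 100% of values above 0 within 0.01 of a read. The read counts given here were recovered in this way.

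Genes with at least 1 FPKM in at least 2 of 8 libraries (11818 of 56748) were fitted with limma 3.58.1 (R 4.3.3) on log2(FPKM + 1), with a pseudocount of 1, a mean per group over all 8 libraries and a trended empirical Bayes step (4 residual and 3.34 prior degrees of freedom). P-values were adjusted by Benjamini-Hochberg across every gene in the fit, and 0.05 was the threshold. An exact permutation test of 2 against 2 clones could not have reached this threshold. The fit was tested on simulated data with the same spread in every group. Between real clones the chi-square per gene was 7.21 in Jak2WT GLUT1/3 WT and 30.0 in Jak2V617F dKO. Unequal spread was not simulated.

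The members and lists were chosen with earlier results of these data known. Named genes are the 9 members, Slc2a1, Slc2a3, direct partners of the members and, for each list, the called genes with the 2 largest positive and 2 largest negative differences. The alternatives dropped the filter or set it on mean FPKM, used a pseudocount of 0.1, no trend or robust estimates, and rescaled the libraries in 2 ways. Further ones were voom on recovered reads, a fit of 2 groups, a replicate block and leaving out each library. Promoters were read from GRCm39 at the Ensembl canonical starts of GENCODE M39 with Python 3.11.15, and figures were drawn with matplotlib 3.10.9. A floor of 3 reads was used for a count of 0 and covers counting error only. Protein sequences are not analysed here, and a few other items are not reported here.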

Additional observations from a re-analysis of the deposited data

Results flagged for a closer look

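The response to the double knockout differed between Jak2WT and Jak2V617F by limma's test of the difference (adjusted p under 0.05) for 3 members. On the log2(FPKM + 1) scale, Jak2V617F minus Jak2WT, the difference was 1.95 for Alad (adjusted p = 0.0087), −0.85 for Hmox1 (adjusted p = 0.027) and 0.56 for Cpox (adjusted p = 0.032). The adjusted p over the fits that left out 1 library ranged from 0.0076 to 0.052 for Alad, from 0.034 to 0.097 for Hmox1 and from 0.025 to 0.12 for Cpox.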

How the results depend on the processing

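Of 712 recomputed differences of the 8 members tested, 629 kept their direction and their side of the threshold, 49 lost and 11 gained a call, and 23, all of members without a call, changed sign. Of the gained calls 6 were of Urod between backgrounds among dKO clones and 2 of its difference between responses. For dKO in Jak2WT, 2 were of Cpox and 1 of Urod. Leaving out each library in turn gave 0 to 2 members called for dKO in Jak2WT, 3 to 4 for dKO in Jak2V617F, 0 to 4 between backgrounds among GLUT1/3 WT clones, 1 to 3 among dKO clones and 0 to 3 for the difference between responses. A group then holds 1 clone, which is assumed to vary like the others. Scaling to the same summed FPKM called 4 members for dKO in Jak2WT. With no filter, 1 member was called among dKO clones and 1 for the difference between responses, and the fit of 2 groups called 1 among dKO clones. Same summed FPKM and voom, in this order, changed the sign of Uros in the Jak2V617F dKO comparison (0.023 and 0.048) and, between backgrounds among GLUT1/3 WT clones, of Uros (−0.033 and −0.052), Urod (−0.083 and −0.046) and Ppox (−0.10 and −0.12). Leaving out 1 library, Fech ranged from −0.10 to 0.038 for dKO in Jak2WT, from −0.14 to 0.15 in Jak2V617F and from −0.11 to 0.18 for the difference between responses. Uros ranged from −0.23 to 0.14 and Urod from −0.084 to 0.23 for dKO in Jak2V617F. Between backgrounds among GLUT1/3 WT clones Uros ranged from −0.10 to 0.26, Urod from −0.092 to 0.22 and Ppox from −0.12 to 0.16. The cause of these changes was not tested.

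Same summed FPKM shifted the median of all genes to −0.12 between backgrounds among GLUT1/3 WT clones and to 0.12 for the difference between responses. It moved the split of all calls from 901 higher and 716 lower to 706 and 1378 for dKO in Jak2WT, from 1614 and 1919 to 2192 and 1452 in Jak2V617F, from 1812 and 1765 to 1223 and 2930 between backgrounds among GLUT1/3 WT clones, and from 558 and 698 to 1177 and 393 for the difference between responses. Without the filter, 714 genes in place of 1617 were called for dKO in Jak2WT, 1347 in place of 2019 between backgrounds among dKO clones and 346 in place of 1256 for the difference between responses. Voom called 2605 for dKO in Jak2WT and 1896 for the difference between responses. The fit of 2 groups called 1617 in place of 3533 for dKO in Jak2V617F and 1028 among dKO clones. Leaving out 1 library lowered these counts to as few as 110 for dKO in Jak2WT, 2131 in Jak2V617F, 1583 and 620 between backgrounds and 5 for the difference between responses.

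Clone numbers do not pair the clones, since deviations of equally numbered clones correlated at −0.25 to 0.15. With clone number as a replicate block 2, 4, 4, 2 and 3 members were called in the 5 comparisons, and no call changed. The ratio of Alas2 to Alas1 between groups was not run, because 1 library had 0 reads on Alas2. Depth limits Alas2, with at most 19 reads, while every other member had at least 157 reads in each library.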
